A study of Homo sapiens with 24 samples.

Results

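The puromycin change in RPAP3 enrichment compares, for every gene of the deposited count table, how far its RNA was recovered with GFP-tagged RPAP3 over background beads after puromycin with the same recovery without it. Of 28307 genes in the table, 15202 had enough counts to be tested, and the remaining 13105 were not tested. It used 8 of the 24 libraries of the series. The cells were HCT116, which derive from a human colorectal carcinoma, with a GFP knock-in at RPAP3. Their RNA was sequenced after pull-down on GFP-Trap beads (GFP beads) or on agarose beads that carry no anti-GFP (uncoupled beads). Cells were untreated or had received puromycin at 100 µg/mL for 30 min, which gives 4 groups of 2 libraries, replicates A and B. Both bead types were used on the same tagged line, so the tag was present in all 8 libraries. Whether the line was 1 clone, which end of RPAP3 carried GFP and whether an untagged copy remained are not given in the sources used here.

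RPAP3 is the scaffold of R2TP, a co-chaperone that also holds the AAA+ ATPases RUVBL1 and RUVBL2 and the adaptor PIH1D1. RPAP3 binds HSP90 and HSP70 through its TPR domains and helps clients such as RNA polymerases, PIKK kinases and small nucleolar and spliceosomal ribonucleoproteins to assemble. An mRNA can come down with a chaperone through the nascent chain on its ribosomes. Puromycin is built into nascent chains and releases them, so the comparison asks which mRNAs needed an intact nascent chain to be recovered.

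The enrichment of 37 mRNAs fell with puromycin and that of 1, DSP, rose. These are 0.243% and 0.00658% of the genes tested, with edgeR's quasi-likelihood test at an adjusted p under 0.05. The change is a log2 ratio of ratios: each unit below 0 divides the ratio of GFP to uncoupled beads by 2. Over all genes its median was -0.001, with quartiles of -0.19 and 0.17, and 472 genes had an unadjusted p under 0.05. Among the 37 the median was -1.76 and the range ran from -5.71 to -0.92. The change was under -4 in 8 of them, under -3 in 13, under -2 in 17 and under -1 in 35. All 38 called genes are protein coding, as are 13180 of the genes tested, and the 37 lie on 17 chromosomes. Together the 37 mRNAs took 2.61% and 3.83% of all counts on the untreated GFP beads, 0.288% and 0.326% on the GFP beads after puromycin, 0.187% and 0.2% on the untreated uncoupled beads, and 0.245% and 0.264% on the uncoupled beads after puromycin.

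**Figure D1:**
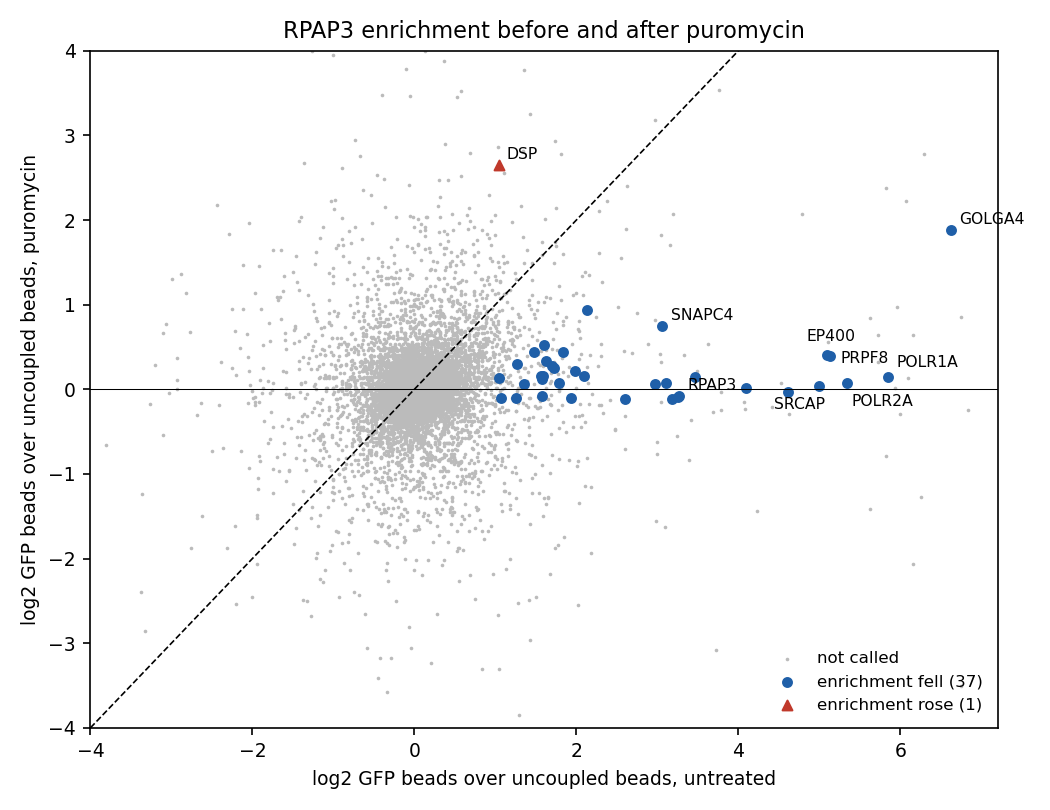
Each point is 1 tested gene, with its log2 ratio of GFP over uncoupled beads in untreated cells on the x axis and after puromycin on the y axis; the dashed line marks equal ratios, and 39 genes lie outside the axes. The 37 genes whose enrichment fell (blue) lie between 1.05 and 6.62 on the x axis and between -0.12 and 1.88 on the y axis, and DSP (red) lies above the dashed line.

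Total counts were 30844089 to 50394245 per library, and the log2 counts of A and B in a group correlated at 0.979 to 0.984 over genes, which are not independent replicates. Puromycin separated the libraries on both bead types along the first principal component (48.2% of the variance, 36.7 to 48.7 with puromycin and -47.6 to -35.0 without). Replicate A of the untreated GFP beads stood apart on the next one, at 40.2 (11.7% of the variance). Separate cultures are not named for A and B in the labels. The p-values therefore reflect the spread among these 8 libraries, and that spread may be technical. For each gene edgeR also draws the variance toward the trend over all genes. The RPAP3 fit had 4 residual and a median of 17.3 prior degrees of freedom, so most errors rest largely on other genes. Levels below are CPM, counts scaled by depth and composition, so they are shares of each library, and fewer cells and less RNA per cell cannot be told apart. Epithelial markers of the colon summed to 1439 to 1876 CPM in untreated and 4032 to 5053 CPM in treated libraries on both beads. Markers of blood and endothelium summed to 10.12 to 16.76 CPM with HBB at 0, those of stroma to 5.233 to 15.78 CPM and those of liver to 1.072 to 4.442 CPM. No tested marker was called in the change.

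The largest subunits of the RNA polymerases led the list. POLR1A, the largest subunit of RNA polymerase I, stood at 1387 and 2536 CPM on untreated GFP beads (replicates A and B), at 38.88 and 43.64 CPM on GFP beads after puromycin, at 32.71 and 35.13 CPM on untreated uncoupled beads and at 38.64 and 35.97 CPM on uncoupled beads after puromycin. Only the untreated GFP libraries were high, and the other 6 lay close together. The enrichment fell by 5.71 ± 0.32 on the log2 scale, a 52.3-fold drop (adjusted p = 2.2e-07). Values after ±, here and below, are standard errors. Their variance is pooled over the libraries of the fit, here 8, and drawn toward the trend over genes. POLR2A, the largest subunit of RNA polymerase II, went from 4775 and 7177 CPM to 204.9 and 231.4 CPM on GFP beads, while uncoupled beads went from 138.4 and 156.4 CPM to 207.3 and 209.3 CPM. After puromycin its GFP libraries lay on both sides of the uncoupled ones, and its enrichment fell by 5.27 ± 0.25 (adjusted p = 1.6e-11). POLR3A, the same subunit of RNA polymerase III, fell by 4.08 ± 0.23 (adjusted p = 1.9e-10), from an enrichment of 4.09 ± 0.18 to one of 0.01 ± 0.16.

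The second largest subunits did not move as a group. POLR2B had 585.7 and 554.2 CPM on untreated GFP beads, 174.7 and 164.8 CPM after puromycin, and 66.48 and 59.02 CPM against 183.2 and 182.8 CPM on uncoupled beads, so after puromycin both GFP libraries were below both uncoupled ones. Its change was -3.29 ± 0.19 (adjusted p = 1.5e-10). POLR1B and POLR3B were not called, at values between -0.36 and -0.30. The list of the 6 large subunits therefore had 4 lower calls and a median change of -3.69. Of 25 other polymerase subunits 0 were called in either direction, with values from -0.22 to 0.37 and a median of 0.07. Among 6 assembly factors 0 were called. The nearest was RPAP2, a phosphatase of the polymerase II C-terminal domain that takes part in nuclear import of the enzyme, at -0.99 ± 0.23 (adjusted p = 0.086).

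Proteins that read the C-terminal domain of polymerase II through a CTD-interaction domain had 4 of 8 members lower, with a median change of -1.61. SCAF4, which restrains premature polyadenylation together with SCAF8, had 524.4 and 818.6 CPM on untreated GFP beads and 39.93 and 44.9 CPM after puromycin. Its uncoupled libraries held 25.84 and 29.13 CPM untreated and 42.84 and 44.06 CPM after puromycin, a range that its treated GFP libraries overlapped. The change was -4.64 ± 0.25 (adjusted p = 1.5e-10). SCAF8 changed by -3.35 ± 0.21, PCF11, a factor of 3′ end cleavage and termination, by -3.32 ± 0.20 and CHERP, a protein tied to calcium handling and splicing, by -2.91 ± 0.18 (adjusted p of 1.9e-10 to 5e-10). The other 4 members lay between -0.31 and 0.04.

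Genes of the polymerase III apparatus and of small nuclear RNA transcription gave single calls. GTF3C1, the largest TFIIIC subunit, was the 1 lower call among 10 TFIIIC and TFIIIB genes, at -1.39 ± 0.22 (adjusted p = 0.0021). BDP1, a TFIIIB subunit in the same list, was enriched before (1.06, adjusted p = 0.00042) and after puromycin (1.27, adjusted p = 0.00029), with a change of 0.22 ± 0.22. SNAPC4, the largest subunit of the complex that starts snRNA transcription, had 131.7 and 186.9 CPM on untreated GFP beads, 21.56 and 23.96 CPM after puromycin, 18.07 and 20.04 CPM on untreated uncoupled beads and 12.12 and 14.99 CPM on treated ones. Its change was -2.31 ± 0.23 (adjusted p = 2.7e-06).

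Chromatin remodellers came next. In the list of INO80, SRCAP and TIP60 subunits, 4 of 29 tested members were lower, with a median of -0.14 for the list. SRCAP, the ATPase that gives its complex its name and deposits the histone variant H2A.Z, had 2411 and 2492 CPM on untreated GFP beads and 51.99 and 53.04 CPM after puromycin. Uncoupled beads held 71.83 and 81.31 CPM untreated and 51.01 and 51.03 CPM treated, so its mRNA was lower after puromycin on both beads. Its change was -4.96 ± 0.20, a 31.1-fold drop with the smallest adjusted p of the 38 calls, 6.3e-13. EP400, the ATPase of the TIP60 complex, changed by -4.70 ± 0.33, INO80, the ATPase of the INO80 complex, by -1.76 ± 0.19 and BRD8, a bromodomain subunit of TIP60, by -1.28 ± 0.19. The other 25 members lay between -0.54 and 0.25. The remodellers CHD2 (-1.08 ± 0.20) and CHD1 (-1.04 ± 0.21), which are in none of the lists, were called as well.

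Among 21 proteins of the U5 and U4/U6 snRNPs and their assembly, PRPF8 was the 1 call. PRPF8 sits at the core of the spliceosome. Its untreated GFP libraries differed from each other, at 2568 and 5766 CPM, and its treated ones held 267.7 and 331.6 CPM. Uncoupled beads held 117.6 and 120.6 CPM untreated and 239.5 and 218.0 CPM treated. The change was large, at -4.74 ± 0.52, but with these replicates its adjusted p was 0.025. The call was lost without replicate A or B of the untreated uncoupled beads and without A or B of the treated ones, at changes of -4.81 to -4.67 and adjusted p values of 0.16 to 0.3. It was also lost with total-count scaling (-4.70, adjusted p = 0.13), and in all 5 of 18 alternatives lost it. The call held with DESeq2 (-4.73, adjusted p = 4.6e-14) and limma voom (-4.63, adjusted p = 2.2e-08). In edgeR it held over all 24 libraries (-4.73, adjusted p = 2.1e-06) and without the robust option (-4.74, adjusted p = 3.3e-07).

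The bait's own mRNA was among the calls. RPAP3 had 264.2 and 279.0 CPM on untreated GFP beads, 49.02 and 56.06 CPM after puromycin, and on uncoupled beads 29.56 and 26.72 CPM untreated and 59.34 and 51.95 CPM treated. The change was -3.36 ± 0.19 (adjusted p = 1.3e-10), and after puromycin the beads overlapped. It was the 1 lower call among 11 genes of R2TP and the prefoldin-like module, whose median was 0.03. URI1, the prefoldin-like subunit that joins the module to polymerase assembly, stood at -1.58 ± 0.31 (adjusted p = 0.087). RUVBL1, at 0.04, and RUVBL2, at 0.02, were not called.

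**Figure D2:**
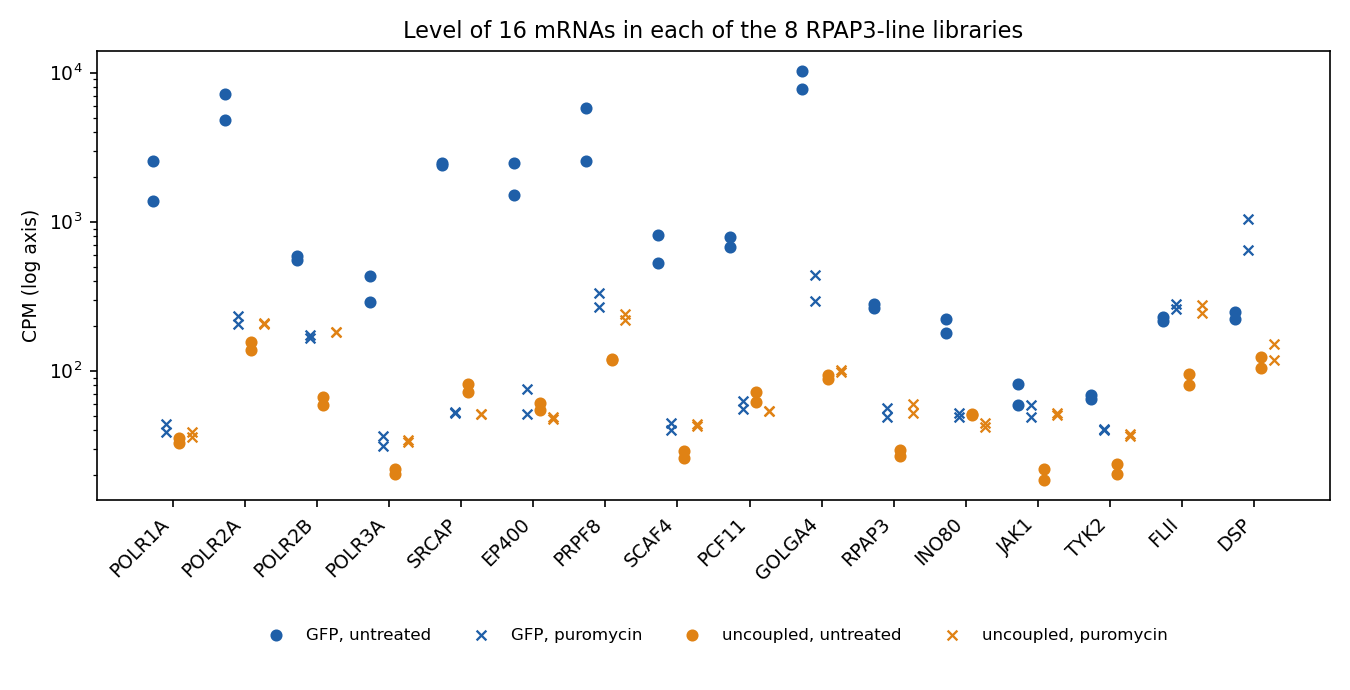
CPM on a log axis for 16 mRNAs, with both libraries of each group as separate points: blue for GFP beads, orange for uncoupled beads, circles for untreated cells and crosses for puromycin. For POLR1A the untreated GFP libraries hold 1387 and 2536 CPM and the other 6 lie between 32.71 and 43.64 CPM. For FLII and JAK1 the treated uncoupled libraries lie above the untreated uncoupled ones and near the treated GFP ones.

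Other called mRNAs belong to scattered functions. GOLGA4, a golgin that tethers vesicles at the trans-Golgi, had 7751 and 10230 CPM on untreated GFP beads and 294.6 and 438.5 CPM after puromycin, with 88.57 to 100.9 CPM on uncoupled beads in both conditions. It fell by 4.74 ± 0.26 (adjusted p = 1.5e-10). After puromycin both its GFP libraries still lay above both uncoupled ones, with an enrichment of 1.88 ± 0.18 (adjusted p = 8.5e-06). It was the 1 lower call among 10 golgins, and GOLGB1, at 1.28 ± 0.35 (adjusted p = 0.91), lay on the other side of 0. AGO3, an Argonaute protein of the small RNA pathway, fell by 2.03 ± 0.24 (adjusted p = 8.3e-05) as 1 of 9 Argonautes and partners. The other Argonautes were not called, with AGO1 at -1.30 ± 0.35 (adjusted p = 0.85), AGO4 at -1.09 ± 0.27 (adjusted p = 0.24) and AGO2 at -0.61 ± 0.19 (adjusted p = 0.61).

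The Janus kinases JAK1 and TYK2, which signal from cytokine receptors, changed by -1.71 ± 0.22 and -1.47 ± 0.18. Genes of genome upkeep among the calls were TOPBP1, an activator of the ATR checkpoint kinase (-1.40 ± 0.19), and SLF1, which brings SMC5/6 to lesions (-1.43 ± 0.25). TEP1, a vault and telomerase-associated protein, fell by 2.72 ± 0.34, and SFI1, a centrin-binding centrosome protein, by 3.04 ± 0.35. PDCD11 and USP36, both nucleolar proteins of ribosome production, changed by -1.46 ± 0.20 and -0.92 ± 0.18. Cytoskeletal and membrane proteins were the myosin MYO9A (-1.43 ± 0.20), FLII of the gelsolin family (-1.29 ± 0.19), the tensin TNS2 (-1.95 ± 0.24), the tubulin polyglutamylase TTLL5 (-1.43 ± 0.21), the kinase NEK1 (-0.97 ± 0.20) and the phospholipase PLD1 (-1.66 ± 0.27). YTHDC2, a helicase that reads methylated RNA, changed by -1.35 ± 0.21.

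Of the 37 calls, 29 held whichever of the 8 libraries was left out and 8 did not. PRPF8 is described above, and SFI1 was lost without replicate B of the untreated uncoupled beads (-2.96, adjusted p = 0.15). SLF1 was lost without replicate A of the untreated uncoupled beads or either treated uncoupled library (-1.43 to -1.37, adjusted p up to 0.091). CHD2 was lost without replicate A of the treated GFP or untreated uncoupled beads or either treated uncoupled library (-1.11 to -0.93, adjusted p up to 0.21). CHD1 was lost without replicate A of any of the 4 groups or replicate B of the treated uncoupled beads (-1.11 to -0.84, adjusted p up to 0.29). NEK1 was lost without any of these or replicate B of the treated GFP beads (-1.01 to -0.75, adjusted p up to 0.28). USP36 was lost without any treated library or replicate A of the untreated uncoupled beads (-0.98 to -0.78, adjusted p up to 0.28). None of the 37 changed direction.

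The change is built from 4 groups, and the 37 genes reached it in different ways. These differences come from the libraries that gave the call, so they are a description. On GFP beads 2664 genes (17.5%) were lower and 3363 (22.1%) higher after puromycin. On uncoupled beads 2955 (19.4%) were lower and 3577 (23.5%) higher. The lower calls on GFP beads became 1682 without replicate A of the untreated GFP beads and 1664 and 1425 without replicates A and B of the treated ones, and those on uncoupled beads 1850 without replicate B of the treated uncoupled beads. With upper-quartile scaling, which shifted the median gene by -0.16 and -0.17, 40.8% and 39.9% of the calls were higher, where the values above give 55.8% and 54.8%. Of the 37 genes 34 were lower on GFP beads, with a median difference of -1.68, and 17 were higher on uncoupled beads, where the median was 0.35. With upper-quartile scaling these counts were 35 and 13. In 34 genes both treated GFP libraries lay below both untreated ones. The share of all tested genes that did so is not given here.

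In 17 genes, POLR1A, PRPF8, GOLGA4, EP400, SCAF8 and PCF11 among them, only the GFP beads were called. In 14 genes, among them POLR2A, POLR2B, POLR3A, RPAP3 and CHERP, the GFP beads were lower and the uncoupled beads higher. These groups follow the threshold. On uncoupled beads PRPF8, not called, was at 0.94 ± 0.35 (adjusted p = 0.073), and RPAP3, called higher, was at 0.99 ± 0.13. In SRCAP, SNAPC4 and CHD2 both beads were lower, the GFP beads by more. In the other 3, JAK1 and FLII among them, the GFP beads were not called and the uncoupled beads were higher. FLII had 230.0 and 215.0 CPM on untreated GFP beads and 259.3 and 280.4 CPM after puromycin, against 94.9 and 79.78 CPM and then 274.3 and 242.9 CPM on uncoupled beads. The puromycin difference was 1.57 ± 0.14 on uncoupled beads (adjusted p = 1.2e-08) and 0.28 ± 0.14 on GFP beads (adjusted p = 0.11). With upper-quartile or total-count scaling JAK1 was called lower on GFP beads as well.

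**Figure D3:**
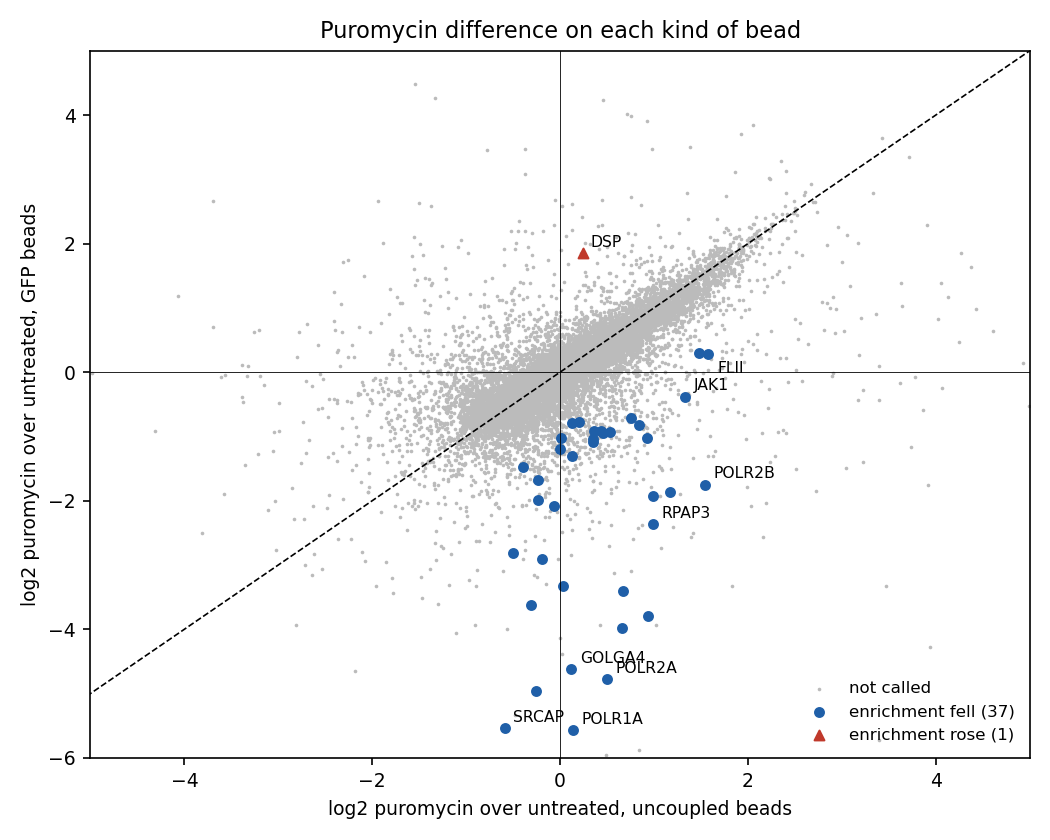
Each point is 1 tested gene, with its log2 difference between puromycin and untreated cells on uncoupled beads on the x axis and on GFP beads on the y axis; the dashed line marks equal differences, the vertical distance from it is the change in enrichment, and 47 genes lie outside the axes. The genes whose enrichment fell (blue) lie between -0.59 and 1.57 on the x axis and between -5.57 and 0.30 on the y axis.

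Before puromycin 233 of the 15202 genes (1.53%) were enriched on GFP beads, and all 37 were among them, at a median of 1.98. The same untreated libraries gave the 37 calls, so this overlap is partly built in, also in the refits that follow. It is a description. The 233 became 113 without replicate A of the untreated uncoupled beads and 150 with total-count scaling, and in both cases 37 of the 37 stayed enriched. After puromycin 70 genes (0.46%) were enriched, 3 of the 37 among them, such as GOLGA4 and SNAPC4 (0.75 ± 0.16, adjusted p = 0.038). Over the 37 the median enrichment after puromycin was 0.14, with 28 values above 0 and 9 below. The GFP and uncoupled libraries overlapped in 13 genes, both GFP libraries were above both uncoupled ones in 21 and below in 3. The shares of all tested genes in these orders are not given here, so the counts only describe the 37. GOLGA4 kept its call whichever library was left out. SNAPC4 lost it in 5 of 8 such fits (lowest value 0.60). The 70 became 12 and 19 without replicates B and A of the treated uncoupled beads, 22 without replicate B of the treated GFP beads, and 108 and 105 without replicates A of the treated and B of the untreated GFP beads.

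Enrichment rose for 1 gene. DSP encodes desmoplakin, which links desmosomes to keratin filaments. It had 221.2 and 248.3 CPM on untreated GFP beads and 650.1 and 1043 CPM after puromycin, while uncoupled beads held 104.3 and 124.4 CPM untreated and 151.7 and 118.7 CPM treated. Both treated GFP libraries were above all others, and the change was 1.61 ± 0.28 (adjusted p = 0.014). The enrichment was 1.04 ± 0.20 before and 2.65 ± 0.21 after puromycin. The call was lost without either untreated GFP library (1.57 and 1.70, adjusted p = 0.75 and 0.32) and without replicate B of the treated uncoupled beads (1.44, adjusted p = 0.13). It was the 1 call among 18 tested genes of epithelial adhesion and keratins. Of these genes, 14 were higher after puromycin on each kind of bead. Over all genes tested the shares were 22.1% on GFP and 23.5% on uncoupled beads. The part of these differences in the DSP call was not tested. Next by p on that side, and not called, were RAD50 (0.85 ± 0.19, adjusted p = 0.068), a DNA repair protein with long coiled coils, and ATRX (1.05 ± 0.25, adjusted p = 0.24), a chromatin remodeller.

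Other gene groups had values near the background in the change. Long coiled-coil and cytoskeletal proteins had 8 of 20 members enriched before puromycin and 7 after it, and 0 were called in the change. Their median change was 0.06. Over all genes tested 1.53% were enriched before and 0.46% after puromycin. MYH10, a non-muscle myosin heavy chain, was at 0.96 before and 1.52 after puromycin (adjusted p = 0.00042 and 8.5e-06), and NIN, ninein of the centrosome, at 1.21 and 0.59 (adjusted p = 3.3e-06 and 0.038). Very long cytosolic proteins had 0 of 30 called in the change and a median of 0.03. PIKK kinases, which are clients of R2TP, and the TTT co-chaperone had 0 of 9, with PRKDC at 0.88 ± 0.31 and SMG1 at -0.32 ± 0.17 (neither called). Proteins of the snoRNPs and their assembly had 0 of 14, with a median of 0.03, and snoRNAs and scaRNAs 0 of 154, whose values scattered from -6.72 to 5.62 at low counts.

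Chaperone mRNAs were not called in the change either. HSP90 and HSP70 genes had 0 of 16, with HSPA4 at -0.65 ± 0.21 (adjusted p = 0.85), and CCT and prefoldin genes 0 of 14, with values from -0.14 to 0.11. On each kind of bead 10 of 16 and 7 of 14 of them were higher after puromycin. Over all genes tested 22.1% were higher on GFP beads and 23.5% on uncoupled beads. ER chaperones moved most, with 9 of 11 higher on GFP beads and 10 of 11 on uncoupled beads, at medians of 1.98 and 1.91, and their median change in enrichment was -0.04. Cytosolic ribosomal proteins had 41 of 83 lower on GFP beads and 40 of 83 on uncoupled beads, and 0 called in the change. The shares lower over all genes tested were 17.5% and 19.4%. The lists of eIF3 (12 tested), WASH (6), immediate early genes (21), ATF4 targets (15), p53 targets (18) and structured non-coding RNAs (11) had 0 calls. TERC, the telomerase RNA in the last list, was enriched at 1.06 before and 1.28 after puromycin (adjusted p = 4.9e-05 and 2.3e-05).

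**Figure D4:**
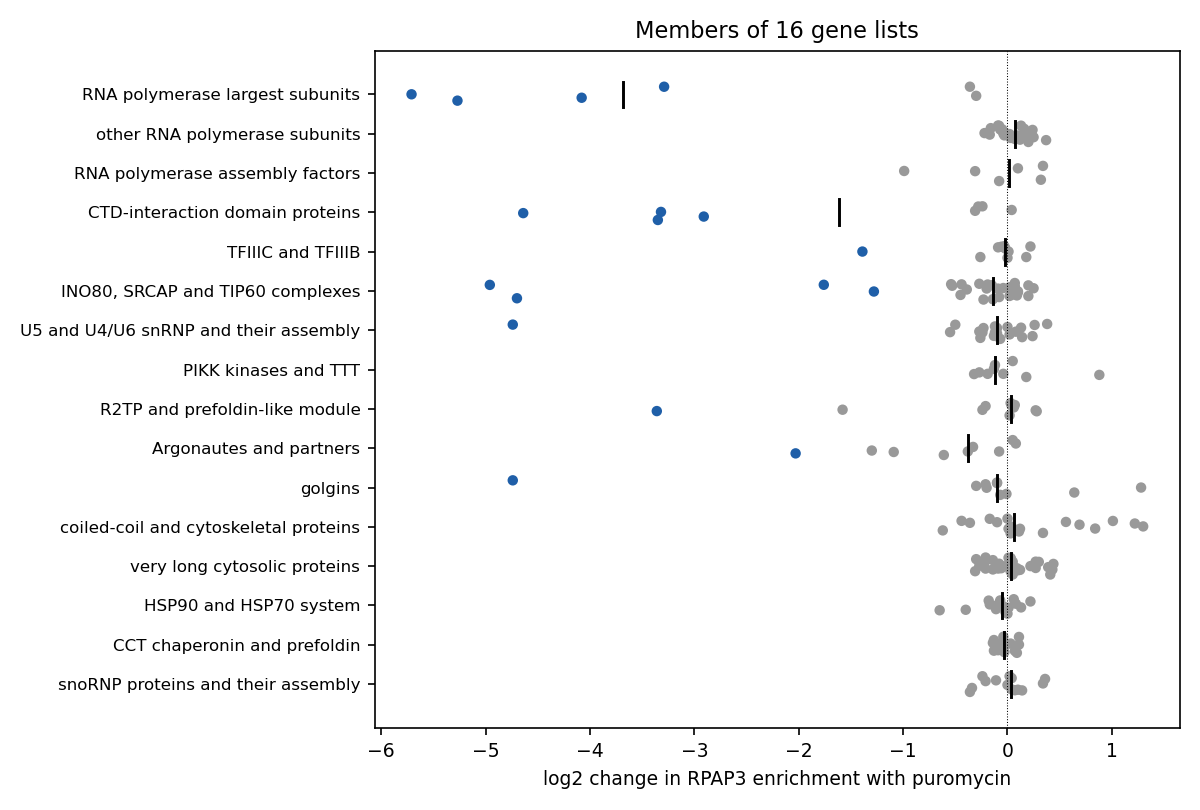
Log2 change in RPAP3 enrichment with puromycin for each tested member of 16 gene lists, with called genes in blue, other genes in grey and the list's median as a black bar; points are spread vertically for visibility. The medians of the large polymerase subunits (-3.69) and of the CTD-interaction domain proteins (-1.61) lie away from 0, and the other 14 lists have medians of -0.38 to 0.07 and hold 0 to 4 blue points.

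The RUVBL1 line, in which GFP sits on the ATPase, gives the same contrast in libraries that are not shared with the RPAP3 line. The contrast used 8 libraries, untreated or given the same puromycin dose, 2 for each treatment and bead type. The fit also held 8 libraries of that line treated with CB-6644, an inhibitor of the RUVBL1/2 ATPase (0.5 µM, 16 h), alone or with puromycin, and their spread enters the RUVBL1 errors. There 12 of 15976 genes were lower (0.0751%) and 6 higher (0.0376%). All 37 genes had a RUVBL1 change below 0, with a median of -1.22 and a range of -4.90 to -0.19, beside 47.4% of the 14748 genes tested in both lines and a median of 0.04. Of the 37, 10 were called lower with RUVBL1, which is 27% of the RPAP3 list and 83.3% of the RUVBL1 list. They were EP400, PRPF8, GOLGA4, PCF11, SRCAP, POLR2A, POLR2B, BRD8, SCAF4 and TOPBP1. The RUVBL1 calls outside the RPAP3 list were SMG1, the kinase of nonsense-mediated decay, at -2.09 ± 0.41 (-0.32 ± 0.17 with RPAP3), and TMEM265 at -3.46 ± 0.45 (-1.10 ± 0.28 with RPAP3, adjusted p = 0.22). In untreated cells 25 of the 37 were enriched with RUVBL1, where 146 genes (0.914%) were.

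Among the 8 libraries of the RUVBL1 contrast, replicate 2 of the untreated uncoupled beads had the fewest counts, 10974407. Without it 34 of the 37 were below 0 and 10 were called lower, among 34 lower and 314 higher calls in all. Without replicate 1 of the untreated RUVBL1 GFP beads 27 of the 37 were below 0, at a median of -0.57, and 7 were called. CHERP, SNAPC4 and FLII were among those above 0 in both fits. In the 6 other such fits 36 or 37 were below 0 and 7 to 16 were called.

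Whether the puromycin change itself differed between baits was tested in edgeR over all 24 libraries, with the CB-6644 libraries in the fit but not in the contrast. Of 16695 genes 0 were called and 1053 had an unadjusted p under 0.05, 11 of the 37 among them. The 37 were called by their RPAP3 change, which is part of this difference. The count of 11 is therefore partly built in and is a description. The lowest adjusted p was 0.14. The median standard error of that difference was 0.53, against 0.24 for the RPAP3 change and 0.41 for the RUVBL1 change, so the precision of this test was lower. CHERP was at -2.91 ± 0.18 with RPAP3 and -0.19 ± 0.42 with RUVBL1, BRD8 at -1.28 ± 0.19 and -3.01 ± 0.35, and PRPF8 at -4.74 ± 0.52 and -4.79 ± 0.53.

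**Figure D5:**
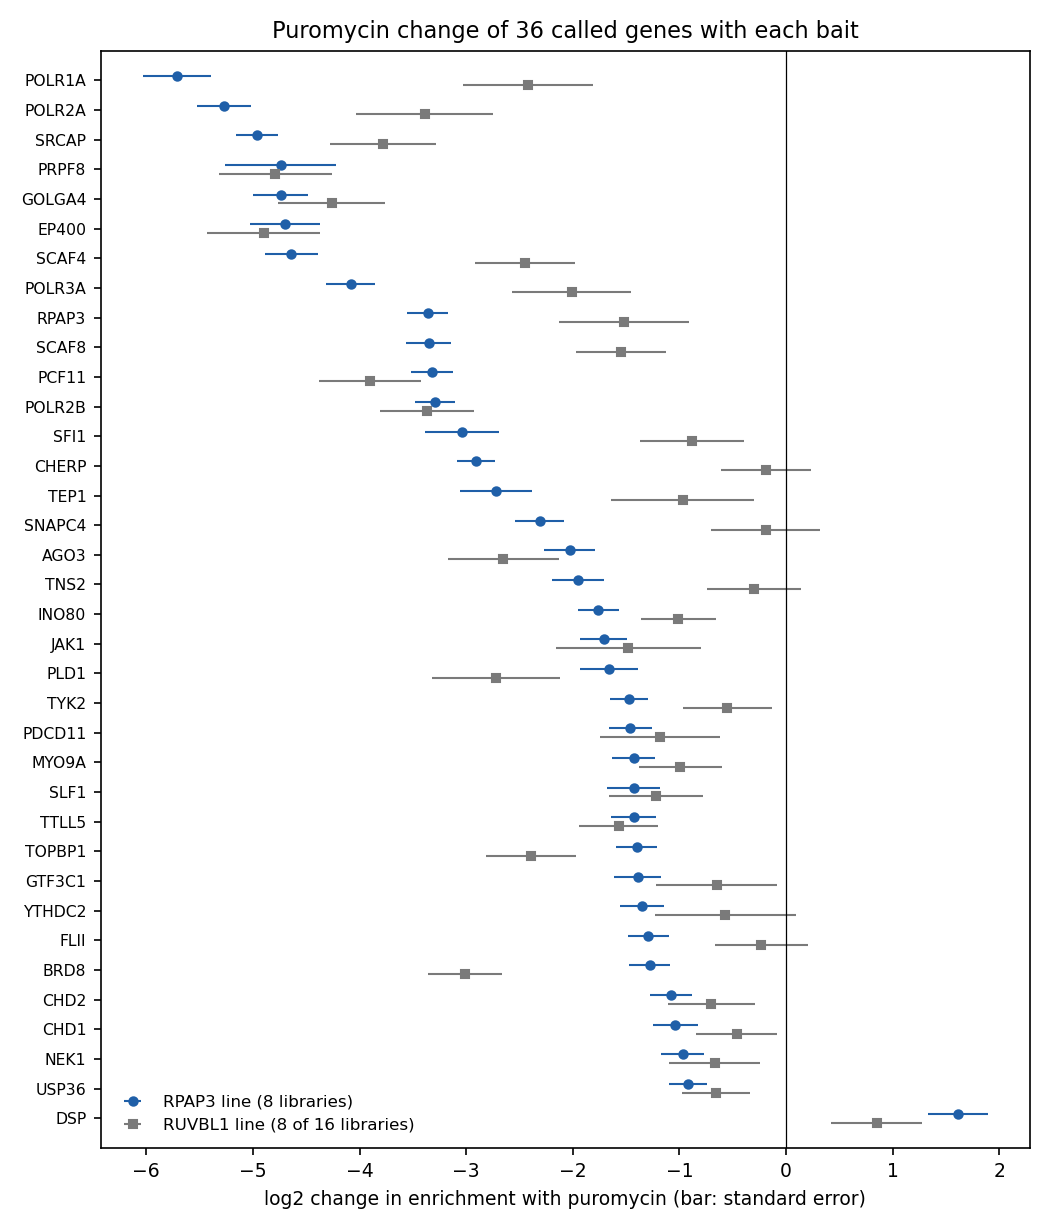
Log2 change in enrichment with puromycin for 36 of the 38 called genes, ordered by their value with RPAP3; blue circles are the RPAP3 line and grey squares the RUVBL1 line, and bars are standard errors. The genes whose RPAP3 enrichment fell have RUVBL1 values from -4.90 to -0.19, and DSP lies above 0 with both baits, at 1.61 and 0.85.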

How the data were processed

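The authors deposited read counts per gene, whole numbers without normalization, for all 24 libraries. The submitters' processing notes, not the file, name TopHat2 2.1.1 and featureCounts 2.0.3 with build hg38. A stranded SMART-seq kit was used, per the labels' protocols. Strand setting, handling of multiply placed reads and annotation release are not given in the sources used here, so counts of overlapping genes and close copies are uncertain.

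Groups came from the labels. The 8 RPAP3 libraries were fitted together in edgeR 4.0.16 (R 4.3.3; filterByExpr, TMM, robust quasi-likelihood test; common biological coefficient of variation 0.142), with Benjamini-Hochberg adjustment over all 15202 genes. The robust fit gives genes with discordant replicates larger p-values for a given ratio of change to error. The RUVBL1 line was fitted over its 16 libraries, 8 of them treated with CB-6644. Scripts were tested on simulated data.

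Text names RUVBL1, RUVBL2, RPAP3, every called gene (up to 40 per direction), the 5 next by p, up to 4 members per list by p and the 10 most enriched after puromycin, without giving all of them; 2 called genes are counted but not reported by name here. Members, lists and rules were chosen with earlier results of these data known. Alternatives were other scalings, filters, a replicate block, leaving out each library, the 24-library fit, limma voom 3.58.1 and DESeq2 1.42.0. A planned description of protein length and motifs was not made, since protein sequences were not used here.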

Additional observations from a re-analysis of the deposited data

How the results depend on the processing

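None of the 37 lower calls changed direction under the 18 alternatives, and 14 were called in all of them. The 38 calls (37 lower, 1 higher) became 64 (52, 12) without a filter on low counts, 16 (16, 0) in the fit of all 24 libraries, where 21 of the 37 were lost, 55 (47, 8) with a replicate block and 52 (46, 6) with DESeq2. Upper-quartile and total-count scaling gave 2 higher calls each, and limma voom gave 38 calls. Leaving out 1 library gave 31 to 63 calls, 30 to 53 lower and 0 to 12 higher, the 63 when untreated GFP replicate B was left out. Higher calls were 10 there, 12 without replicate A of the treated GFP beads, 3 without replicate A of the untreated uncoupled beads and 0 without replicate B of the treated uncoupled beads. RUVBL1 and RUVBL2, at 0.04 and 0.02, changed sign in 4 such fits each, and ranged from -0.18 to 0.35 and from -0.13 to 0.15. The replicate letters did not pair the libraries: differences between A and B correlated at -0.12 to 0.16 between groups, so the fit with a replicate block is not the main one. With it the RUVBL1 change had 16 lower and 20 higher calls. On uncoupled beads the sign of the puromycin difference flipped for POLR1A, GOLGA4, SCAF8, TTLL5, CHD1 and USP36 with upper-quartile scaling, and for SCAF8 and CHD1 with total-count scaling. With upper-quartile or total-count scaling CHD1 and NEK1 lost their calls. Under 1 CPM the median standard error of the change was 1.36 over 2400 genes, against 0.20 at 10 to 100 CPM, so rare mRNAs were tested less sharply. The causes of these shifts were not tested.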

Other observations

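Several called genes have close relatives in the table, and the families below were chosen after their values were seen. Of 4 Janus kinases 2 were called lower and the other 2 lay at -0.50 and -0.35, with a family median of -0.98. Of 9 CHD remodellers 2 were lower, CHD1 and CHD2, and the other 7 lay between -0.36 and 0.43. Of 9 tested myosins of classes I and IX 2 were lower, of 9 TTLL enzymes 1, and of 5 SNAPc subunits 1, SNAPC4.

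Next to the threshold on the lower side, and not called, were VARS2, the mitochondrial valyl-tRNA synthetase (-1.14 ± 0.25, adjusted p = 0.054), RNA28SN5, a copy of 28S ribosomal RNA (-1.31 ± 0.27, adjusted p = 0.056), COPA, a coatomer subunit (-0.78 ± 0.17, adjusted p = 0.062), IFT122 of intraflagellar transport (-1.03 ± 0.23, adjusted p = 0.068) and the phosphatase PTPN13 (-1.22 ± 0.26, adjusted p = 0.086). COPA was higher after puromycin on both beads, by 0.66 ± 0.12 on GFP and 1.44 ± 0.12 on uncoupled beads. RNA28SN5 is present in near-identical copies, so its count is uncertain. It rose on uncoupled beads from 15.0 and 18.66 CPM to 46.97 and 68.12 CPM.

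Replication-dependent histones had 0 of 44 tested genes called in the change, with 4 values below 0 in it and a median of 0.24. Over all genes tested 7619 of 15202 values were below 0. Of the 44 histone genes 30 were lower after puromycin on uncoupled beads and 14 on GFP beads. The shares lower over all genes tested were 19.4% and 17.5%. Near-identical copies of histone genes make single values uncertain.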
